A study of Arabidopsis thaliana with 12 samples.

Results

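Genes whose place on the array dropped during recovery from photoinhibitory cold are described here. Arabidopsis thaliana (thale cress) wild-type plants of ecotype Columbia 0 were profiled in 2 conditions with 6 samples each, numbered 1 to 6. In the recovery group, plants spent 24 h at 4 °C and then 24 h at 20 °C, both in medium light. In the cold group they had only the first 24 h at 4 °C, so both groups carry the cold treatment and no untreated plants are among them. Total RNA was measured on arrays of 3439 probes, and the labels name no tissue and do not say whether samples came from separate plants. Each deposited value is a linear signal with unstated scaling, so each gene was placed by its percentile rank within its array, where 100 is the brightest probe. Genes were selected on the measured ranks themselves: the mean rank in cold had to be at least 50 and the mean rank in recovery at least 20 points lower. A total of 71 of the 692 genes on a probe of their own met both limits, and 8 of these 71 are not described here, which leaves 63 genes. The 692 are counted by probe, since 1 locus, not among the 63, has 2 probes. The limits were met at much the same rate by all kinds of probe: 10.3% of probes with 1 gene, 10.2% of those with several genes and 9.70% of those with no listed gene, and 9.94% of all 3439 probes.

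Light that is harmless at growth temperature becomes excessive in the cold, because the enzymes that use photosynthetic energy slow down while light capture does not. Photosystem II is then damaged faster than it is repaired, and leaves adjust transcripts for chloroplast, membrane and protective functions. Once plants are warmed, repair and growth resume and many cold-time transcripts decline. The 63 genes are not members of 1 pathway: by common knowledge of the loci, 34 fall into groups ranging from cell wall proteins to organelle, nuclear, kinase and metabolic functions, and 29 were assigned no role. The gene table used for names matched 62 of the 63 and gave a symbol other than the locus to only 2, APTX and PRA1.B6. Roles below are background on the loci and were not measured here.

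The selection fixes the direction of every change below, so the values are a description and no test is attached to them. The median gene of the 63 stood at the 35.2nd percentile in recovery and at the 67.0th in cold. The median change in rank was -31.7 points, with a range of -60.1 to -20.1, against 2.01 points for all 692 genes on a probe of their own. The loss was 20 to 30 points in 29 genes, 30 to 40 in 21, 40 to 50 in 8 and over 50 in 5. In recovery 7 genes ended below the 20th percentile and 6 stayed at or above the 50th.

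**Figure D1:**
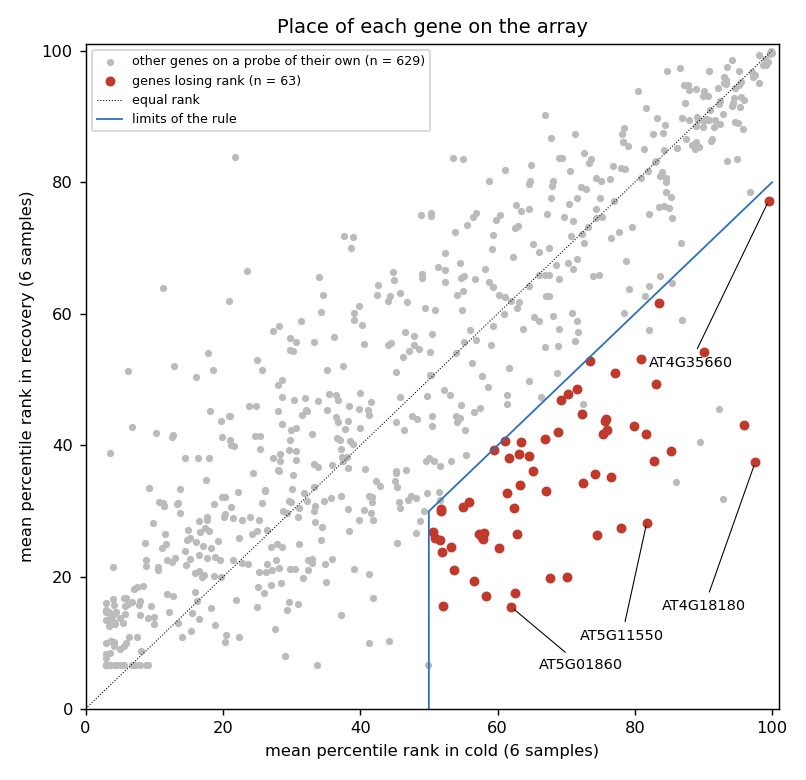
Mean percentile rank in recovery (vertical) against cold (horizontal) for 692 genes on a probe of their own, each point a mean of 6 samples. The 63 selected genes lie under the limit lines by construction, as do 8 grey points for the genes that are not described here; the red points run from AT4G35660 near the top right to AT5G01860 at the bottom.

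The deposited signals, from which the ranks were taken, were lower in recovery for these genes. The median signal over all probes was lower too, though not every probe fell. It was 0.0971 to 0.128 in the recovery samples and 0.276 to 0.315 in the cold samples. The mean recovery signal of the 63 genes was between 1.1% and 20.5% of their cold signal, with a median of 11.7%, whereas the median over all 692 genes was 43.9%. All 6 recovery signals lay below all 6 cold signals in each of the 63 genes, as they did in 49.2% of all probes. Ranks do not carry a dimming shared by all probes. On ranks, 48 of the 63 had all 6 recovery values below all 6 cold values, as did 15.9% of all probes. After quantile normalization, limma called 60 of the 63 lower in recovery, against 19.3% of all probes. Since the genes were picked on this contrast, nothing is read from these 3 counts.

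Only 2 of the 63 genes were assigned to the cell wall, AT4G18180 and AT5G62360, and they changed by -60.1 and -48.2 points. Other pectin or wall genes on the array were not counted, so nothing is read from these 2 about such genes as a class. AT4G18180, a pectin lyase-like protein of the kind that acts on wall pectin, had the largest rank loss of all 63. Its deposited signal was 0.0359 at lowest, 0.0633 at the median and 0.121 at highest over the 6 recovery samples, against 5.91, 6.51 and 6.79 in the cold samples. All 6 recovery samples were low and the groups were far apart: the rank was 37.5 ± 8.05 in recovery and 97.5 ± 0.157 in cold (SD, n = 3, with samples 1 and 2, 3 and 4, and 5 and 6 averaged, as in all values of this form below). An SD of this form leaves out differences between the samples of a pair. For AT4G18180 the log2 difference after quantile normalization was -5.28 ± 0.17 (SE). AT5G62360, of the family of pectin methylesterase inhibitors, which restrain the enzymes that remove methyl groups from pectin, had signals of 0, 0.0378 and 0.0991 (lowest, median, highest) in recovery and 0.589, 0.669 and 0.706 in cold. Its recovery values spread widely, with 1 sample listed at 0, while the 6 cold values lay close together.

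Among the 7 genes for DNA, RNA and nuclear proteins, the median change was -36.4 points. APTX, an aprataxin-like protein that belongs to a family acting on unfinished DNA ends during break repair, had recovery signals of 0, 0.0400 and 0.0935 (lowest, median, highest) and cold signals of 0.598, 0.837 and 0.897. Recovery samples 1 and 2 were both listed at 0, and the remaining recovery samples were still below every cold sample. AT5G01860, a zinc finger protein, stood at 0 in 4 recovery samples, the most of any of the 63. Its other 2 recovery signals were 0.0883 and 0.0491, in samples 1 and 2, and its cold signals ran from 0.362 through a median of 0.432 to 0.487. AT2G36560, of the AT-hook class that binds the minor groove of AT-rich DNA, ranked at 34.3 ± 9.71 in recovery and 72.4 ± 2.70 in cold. AT3G50880, of a DNA glycosylase family that removes damaged bases, ranked at 26.7 ± 14.3 in recovery and 58.0 ± 0.990 in cold. A second zinc finger gene, AT5G61470, had overlapping ranks in the 2 groups. AT4G21770, of the pseudouridine synthases that modify RNA, differed among the cold samples: its signals there were 1.54 and 1.56 in samples 1 and 2, 0.483 and 0.500 in samples 3 and 4, and 1.18 and 1.22 in samples 5 and 6. Its recovery signals ran from 0.0676 to 0.197, with a median of 0.116, below the lowest cold pair. AT4G30150, of the Urb2 family, known from yeast for a part in ribosome assembly, had the smallest change of the group at -24.4 points.

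The 8 genes for chloroplast and mitochondrial proteins lost 22.5 to 50.1 points, with a median change of -25.9. The largest loss was that of AT5G15280, a pentatricopeptide repeat protein, a family that binds organelle RNA. Its recovery signals were 0 at lowest, 0.0176 at the median and 0.0921 at highest, against 0.489, 0.545 and 0.642 in cold. Samples 5 and 6 of recovery were listed at 0, and the brightest recovery sample stood well under the dimmest cold sample. AT2G46050, of the same family, changed by -23.0 points and its ranks overlapped between groups. AT1G22700, a tetratricopeptide protein needed to assemble photosystem I, had recovery signals of 0.0385, 0.0868 and 0.246 and cold signals of 0.538, 0.679 and 0.893 (lowest, median, highest). In recovery sample 6 it reached the 71.2nd percentile, just above its lowest cold rank of 71.1, so 1 sample made the ranks of the groups overlap. AT3G58830, the plastid phosphatase that completes phosphatidylglycerol, a lipid photosystem II depends on, ranked at 47.8 ± 4.66 in recovery and 70.3 ± 3.24 in cold. AT3G24190, of an atypical kinase family found in plastids and mitochondria, ranked at 42.0 ± 15.3 in recovery and 68.8 ± 4.76 in cold, with recovery sample 3 listed at 0. AT5G47890, a small subunit of mitochondrial complex I, was uneven in recovery: samples 1 and 3 had signals of 0.0761 and 0.142, and the other 4 lay between 0.00497 and 0.0121. Its cold signals ran from 0.246 to 0.439, and its rank changed by -24.9 points. AT5G06410, a co-chaperone for iron-sulphur cluster assembly, changed by -28.7 points, and AT5G53920, of a family that methylates ribosomal proteins, by -23.8.

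Metabolic enzymes made up 7 of the 63 genes, with a median change of -38.6 points. AT3G50270, of an acyltransferase family that decorates secondary metabolites, had recovery signals of 0.0279, 0.0783 and 0.126 (lowest, median, highest), against 0.982, 1.18 and 1.27 in cold. Both groups were well apart, and recovery samples 3 and 4 were the lowest. AT1G02020, a nitroreductase family gene, varied among the cold samples, with signals of 2.49 and 2.56 in samples 1 and 2, 1.1 and 1.05 in samples 3 and 4, and 0.582 and 0.493 in samples 5 and 6. Its recovery signals were 0.0476 at lowest, 0.0642 at the median and 0.126 at highest, all below the dimmest cold pair. AT1G73740, of a glycosyltransferase family, ranked at 41.8 ± 16.9 in recovery and 81.6 ± 4.41 in cold, and AT3G61540, of a hydrolase family, at 35.7 ± 3.31 in recovery and 74.2 ± 3.41 in cold. The small recovery SD of AT3G61540 comes after averaging of unlike samples. Its single samples ranked from 21.7 to 50.5 in recovery and from 69.2 to 78.0 in cold. AT4G17260, a lactate dehydrogenase, the enzyme of fermentation that turns pyruvate into lactate, ranked at 42.4 ± 7.12 in recovery and 76.0 ± 4.00 in cold. AT3G11150, an oxygenase that uses iron and oxoglutarate, changed by -32.2 points. AT5G44000, of the glutathione transferases that conjugate toxic compounds, changed by -28.1 and was the only enzyme of the 7 whose ranks overlapped between groups. The selection favours ranks without overlap, which 15.9% of all probes had in this direction, so nothing about the enzymes is read from this.

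The 5 protein kinases changed by -31.9 to -20.4 points, with a median of -24.4. AT1G61590, a cytoplasmic kinase of the receptor-like class, led them, with ranks of 30.5 ± 8.11 in recovery and 62.4 ± 5.55 in cold. AT1G53050 changed by -20.7, AT1G69910 by -20.4, AT2G31800, of the integrin-linked class, by -24.4 and AT2G46850 by -26.0. Ranks of recovery and cold overlapped in 3 of the 5, AT1G53050, AT1G69910 and AT2G31800, which had the smallest losses of the 5. Over all probes 15.9% had every recovery rank below every cold rank. In AT1G53050 recovery signals reached from 0.0280 to 0.235, with samples 1 and 2 highest and sample 4 lowest.

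Of the 3 genes of protein turnover, AT2G39100, a RING finger protein of the kind that attaches ubiquitin to substrates, was among the brightest in cold. Its recovery signals were 0.0917, 0.122 and 0.172 (lowest, median, highest), against 1.39, 1.78 and 1.83 in cold. The groups did not overlap, and even after this fall it stood at a rank of 54.2 ± 7.53 in recovery, against 90.1 ± 1.73 in cold. AT5G23540, the deubiquitinating subunit in the lid of the proteasome, was listed at 0 in recovery samples 3 and 4 and had signals of 0.0933 to 0.129 in the other recovery samples. Its cold signals ran from 0.306 to 0.649, and its log2 difference was -1.34 ± 0.50 (SE). It is 1 of the 3 genes that limma did not call, the others being AT1G17744 and AT1G27610. The remaining gene, AT2G03200, an aspartyl protease, changed by -26.2 points. Membrane proteins complete the assigned genes. PRA1.B6, a prenylated Rab acceptor, of a family that works in vesicle traffic, had signals of 0.00674, 0.0651 and 0.150 in recovery and 0.637, 0.684 and 0.818 in cold. AT3G02690, of a family of small-molecule transporters, ranked at 43.0 ± 9.09 in recovery and 79.9 ± 2.05 in cold.

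The 29 genes without an assigned role included the brightest of all. AT4G35660 had signals of 0.263, 0.342 and 0.514 (lowest, median, highest) in recovery and 16.5, 19.6 and 26.1 in cold. Its signal and its rank gave different orders: its log2 difference of -5.54 ± 0.14 (SE) was the largest of the 63, yet its change in rank, -22.3 points, was only the 56th by size. In cold it stood at the 99.5th percentile, with few probes above it, and in recovery at the 77.2nd, still among the brighter probes. Across the 63 genes the order by rank change and the order by log2 difference had a Spearman correlation of 0.869, a description of values from the same samples. AT2G36480 had recovery signals of 0, 0.0948 and 0.197, against 3.15, 4.19 and 4.58 in cold. Recovery samples 1 and 2 were its highest and sample 4 was listed at 0, all far below the cold values. AT5G11550 had recovery signals of 0.0190, 0.0445 and 0.0732 and cold signals of 0.694, 0.983 and 1.34. AT5G38310 was dimmer, with recovery signals of 0, 0.0281 and 0.0402 and cold signals of 0.431, 0.512 and 0.630. AT4G03150 was listed at 0 in 3 of 6 recovery samples, as was AT2G46190, and AT3G20490 in 1. The other 22 unassigned genes had rank changes between -37.2 (AT1G24530) and -20.1 (AT1G27610).

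**Figure D2:**
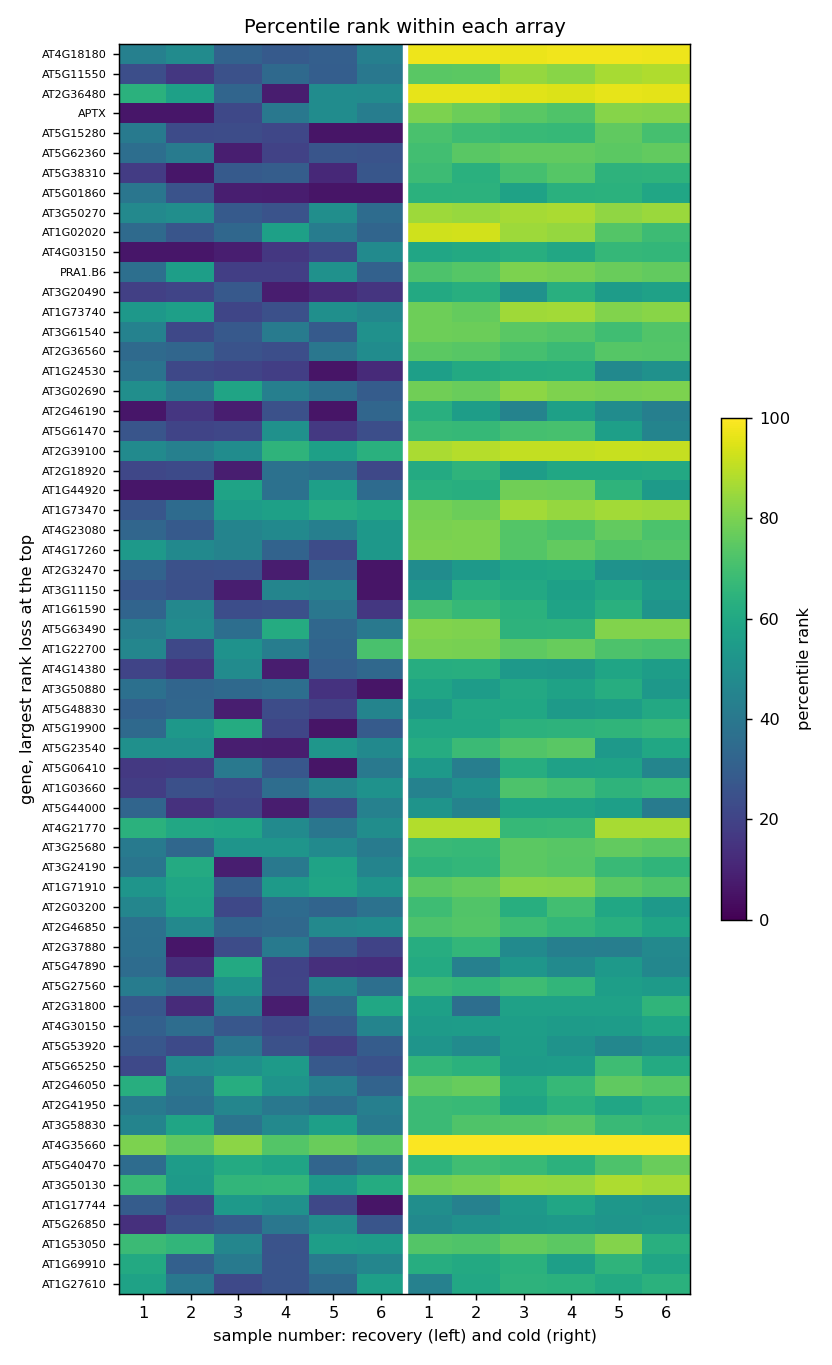
Percentile rank of the 63 genes (rows, largest rank loss at the top) in the 6 recovery samples (left block) and 6 cold samples (right block), from 0 (dark) to 100 (yellow). The lowest rows change least, and single recovery samples reach ranks as high as in cold for AT1G22700 and for other genes whose groups overlap.

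Signals near the bottom of the scale limit how exactly the recovery level of these genes is known. In recovery 25 of the 63 were listed at 0 in at least 1 sample: 16 in 1 sample, 6 in 2, 2 in 3 and 1 in 4. No cold sample listed any of the 63 at 0. The mean recovery signal of 15 genes lay below 0.0415, the 10th percentile of all positive signals, and no cold mean did. Over all probes, 11.3% to 16.4% were listed at 0 in recovery samples and 5.26% to 6.57% in cold samples, and the part of this in the rank losses was not tested. Recovery samples 3 and 4 had the most probes at 0 and also the most of the 63 genes at 0 (9 and 8, against 4 to 6 in the other recovery samples). The median rank of the 63 genes was 31.3 to 40.4 in the recovery samples and 65.4 to 67.9 in the cold samples, a separation that the selection itself favours.

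Repeatability differed between the groups. The SD of ranks over the 3 averaged samples had a median of 9.26 points in recovery and 4.16 in cold for the 63 genes. Set beside other genes of similar recovery rank, the median SD was 8.28 points for 15 selected genes and 7.68 for 83 others at ranks of 20 to 30. It was 12.1 for 19 selected genes and 9.12 for 84 others at 30 to 40, and 9.18 for 16 selected genes and 7.52 for 74 others at 40 to 50. For cold ranks of 50 to 60 the selected genes varied less, with 4.75 for 18 of them and 5.07 for 58 others. At 60 to 75 the values were 4.07 for 26 selected genes and 3.99 for 78 others, and at 75 to 90 they were 4.22 for 15 selected genes and 1.71 for 70 others. AT1G02020, with an SD of 11.1 points in the cold samples, and AT4G21770, with 11.8, are among those last 15. Outside these bands were 7 selected genes ranked below 20 and 6 at 50 or above in recovery. In cold, 4 selected genes ranked at 90 or above were also outside them. The differences between bands of genes were not tested.

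When each pair of samples was left out of both groups in turn and the same limits were applied to the other 8 samples, 60 to 64 genes were selected, of which 52 to 59 are among the 63. The left-out samples had no part in that choice. Without samples 1 and 2, 45 of the 64 genes so chosen met both limits in samples 1 and 2, which is 70.3%, against 8.53% of all 692 genes. Without samples 3 and 4 it was 42 of 60 (70.0%, against 10.6%), and without samples 5 and 6 it was 37 of 60 (61.7%, against 9.39%). All 64 and all 60 of the first 2 choices ranked lower in recovery in the left-out samples, and 58 of 60 of the last. The median change in the left-out samples was -28.7, -31.7 and -27.5 points in this order, against -29.9, -32.6 and -33.1 in the samples that made the choice. The 692 genes were not limited to those bright in cold, so their shares are background and not a matched comparison. Whether left-out samples are independent plants is not stated in the labels, so this shows repeatability of the measurement only.

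For 5 of the 63 genes a further probe lists the gene together with others. These probes were not used in the selection, and none of the 5 lost 20 points. AT5G01860 stood at 15.5 in recovery and 62.0 in cold on its own probe, whereas the probe it shares with 1 other gene stood at 97.0 ± 0.351 in recovery and 96.5 ± 0.404 in cold. The shared probe of AT1G24530 ranked at 83.6 ± 2.58 in recovery and 81.6 ± 2.62 in cold, and that of AT3G25680 at 34.9 ± 7.18 in recovery and 34.5 ± 2.74 in cold. For AT3G50130 the shared probe went the same way as its own, by -8.77 points against -21.9. For AT3G50880 it went the other way: 52.5 ± 6.27 in recovery and 25.9 ± 6.83 in cold, a change of 26.6 points. In cold the shared probes of AT3G25680 and AT3G50880 ranked below the own probes, at 34.5 against 72.4 and 25.9 against 58.0. The other shared probes ranked above the own probes in cold. A shared probe lists several genes, and the sources used here do not say what each adds to its signal. For these 5 genes the loss thus rests on the own probe alone, and why the probes differ was not tested.

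**Figure D3:**
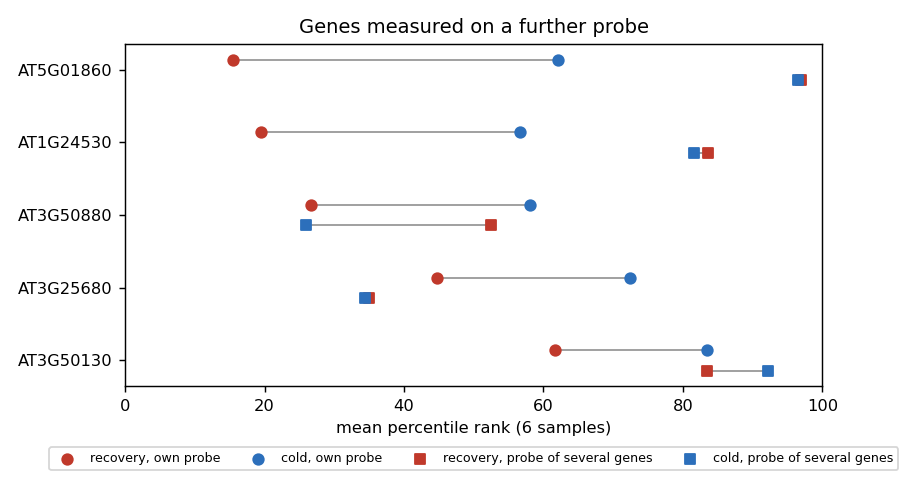
Mean percentile rank over 6 samples in recovery (red) and cold (blue) for 5 genes, on their own probe (circles) and on a probe shared with other genes (squares). Own probes lie lower in recovery by selection, while shared probes moved by -8.77 to 26.6 points.

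The limits cut through a continuous range. Just inside the limit on rank loss were AT1G27610, AT1G69910 and AT1G53050, at -20.1, -20.4 and -20.7 points, and just outside it were AT4G21820, AT5G36470 and AT3G56010, at -19.95, -18.9 and -18.8. Just inside the limit on cold rank were AT5G53920, AT5G47890 and AT2G37880, at 50.7, 50.9 and 51.6. Just outside it was AT5G50350, at 49.9, which lost 43.3 points and ended at 6.62 in recovery, followed by AT4G17440 and AT1G80450, at 48.6 and 48.1. Among genes on a probe of their own, a loss of 20 points or more was seen in 23.7% of those with a cold rank of 50 to 60, 26.0% at 60 to 75, 23.5% at 75 to 90 and 10.3% above 90.

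By their locus names the 63 genes were spread over all 5 chromosomes: 13 on chromosome 1, 12 on 2, 10 on 3, 8 on 4 and 20 on 5. Chromosome 5 held 31.7% of them and 20.7% of all genes on a probe of their own, a difference that was not tested. Among the 62 found in the gene table no 2 were direct neighbours, and 3 pairs lay within 20 genes of each other: AT2G36480 and AT2G36560 with 8 genes between, AT3G50130 and AT3G50270 with 13, and AT2G46050 and AT2G46190 with 13. By probe number, 13 of the 63 (20.6%) had a next-numbered probe that also met both limits, against 14.5% of all probes; the sources used here do not say what the numbers stand for.

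Of the marker lists for tissues, only green leaf genes were on probes of their own, 6 of 8. Their summed signal was 74.2 to 85.2 in recovery samples and 50.4 to 63.6 in cold samples, with 4 of the 6 brighter in recovery. Lists for root, epidermis, guard cell, vascular tissue, seed and pollen had no measured gene, so a shift between tissues could not be followed. In whole samples, fewer cells of a type and less RNA per cell cannot be told apart.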

How the data were processed

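The deposited table holds a signal for each of 3439 probes in 12 samples. The steps by which the authors obtained each signal, such as any scaling or subtraction of background, and any batch are not given in the sources used here. Probe names come from the annotation of the platform (692 with 1 gene, 870 with several, 1877 not listed), with symbols updated from a RefSeq table of assembly TAIR10.1, used for names and gene order only.

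Ranks within each array, with ties averaged, were divided by the number of probes. For the share of probes called, log2(signal + 0.0415) was quantile normalized, samples 1 and 2, 3 and 4, and 5 and 6 were averaged, and limma 3.58.1 (R 4.3.3; lmFit, eBayes with trend) compared 3 with 3 values, with Benjamini-Hochberg adjustment at 0.05. The averaging follows an earlier processing of these files. Deviations from the group mean correlated at 0.336 to 0.503 within these pairs in cold and -0.0326 to 0.0627 in recovery. Where p-values enter a call they measure only the spread between samples, and the number of arrays limits precision. The limma procedure and the selection were run on simulated data with planted changes, as a check of the code only. The simulated samples were drawn without any likeness within pairs, so they say nothing on how reliable the calls are here.

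The genes and lists were chosen with earlier results of these data known. Named genes are the 10 largest rank losses, the 5 brightest in cold, those nearest the limits, and others by role group. Roles were assigned by hand after the values were known. Lists by product name and promoter motifs, planned at first, were not analysed here, because the tables used hold neither product names nor sequences. Ranks were computed in Python 3.11.15 and plotted with matplotlib 3.10.9.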

Additional observations from a re-analysis of the deposited data

Results flagged for a closer look

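One value stood apart from the others of its group. AT1G02020 had a signal of 0.126 in recovery sample 4, and the next highest of the 6 recovery samples was at 0.0742. The gap took up 0.661 of the range of the group, above Dixon's critical value for 6 samples at the 95% level. In the cold group its signals differed between pairs of samples and not by a single one. In all, 28 groups of values were examined in this way, and chance flags about 1 in 20.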

How the results depend on the processing

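The number of selected genes stayed within 1.5 times of 63 under 23 of 24 alternatives. The exception was ranking over probes above 0 in every sample, which gave 40 genes, 29 of them among the 63. This ranking removes by construction the 25 genes listed at 0 in a recovery sample. Some of the 63 without any value of 0 also dropped out, and other genes entered. Membership thus depends on which probes are ranked. Leaving out 1 sample gave 60 to 64 genes. The median rank change of the 63 ran from -32.5 to -30.0 over 16 alternatives. The count of the 63 called lower was 60 and ran from 47 (without cold samples 5 and 6) to 63 over 17 alternatives. None of the 63 was called in the other direction. The calls lower over all probes changed with the setting as well. They were 664 after quantile normalization, 541 without cold samples 5 and 6, and 2024 as deposited, where all 63 were called. After cyclic loess they were 723, with 58 of the 63 called. Since the genes were picked on this contrast, nothing is read from these counts. All 63 had negative log2 differences under 5 scalings, a direction that the selection itself favours. Their medians were -1.42 after quantile normalization, -2.44 as deposited and -1.27 centred on medians. They were -1.26 after cyclic loess and -1.47 when scaling came before the pseudocount. The median of all probes was 0.11, -0.86, 0.31, 0.020 and 0.15 in the same order. Over all probes 1399 were called (735 higher, 664 lower), against 2216 as deposited (192 higher, 2024 lower), 1772 centred (1237 higher, 535 lower) and 1406 scaled before the pseudocount (887 higher, 519 lower). Deviations of equally numbered pairs correlated across groups at 0.0564, 0.12 and -0.005 for the 3 pairs. These values cannot settle whether equal numbers pair samples, which the labels do not say. Deviations of the recovery samples that were averaged correlated at -0.0326 to 0.0627 within pairs. These deviations are from a mean that includes the same samples, which lowers such correlations. The values therefore do not show that the samples of a recovery pair are unrelated. With the replicate block of pair numbers 1381 probes and 60 of the 63 were called, and with that of 6 numbers over 12 samples 1777 and 63. Signals near 0 limit what recovery ranks below the 20th percentile can show.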
